A study of Mus musculus with 36 samples.

Results

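The genes described here are 10 receptors, enzymes and signalling proteins of platelet activation: P2ry12, P2rx1, F2rl2, Tbxa2r, Tbxas1, Ptgs1, Alox12, Rgs18, Plek and Fermt3. Every probe set whose symbol in the platform annotation is one of these names was taken, which gave 18 of the 45101 probe sets on the array and 9 of 18193 genes. None of the probe sets named in that annotation carries the symbol Ptgs1, so that gene was not analysed here. The values come from 36 Affymetrix arrays of peripheral blood RNA from 18 male mice aged 8 weeks, 3 from each of 6 inbred strains (129S1/ImJ, FVB/NJ, DBA/2J, C57Bl/6J, C3H/HeJ and A/J). The blood came from cardiac puncture and went into EDTA before Trizol. Each mouse gave 1 array of GLOBINclear RNA, from which a capture kit had taken alpha and beta globin mRNA, and 1 array of whole RNA that had not been through the kit. Values are log2 expression per probe set as deposited, so a difference of 1 is a doubling, and a mean under log2 3.5 is called near the floor of the scale. Levels are compared only within a probe set.

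Platelets carry RNA from their parent megakaryocytes, and the genes named here cover the steps from an outside signal to a sticky integrin. Receptors for ADP, ATP, thrombin and thromboxane start the signal, arachidonate enzymes make further mediators, a G-protein regulator limits it, and pleckstrin and kindlin act inside the cell on the way to secretion and integrin activation. Whole blood RNA mixes platelets, reticulocytes and leukocytes, and fewer cells of a type and less RNA per cell cannot be told apart in it.

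The promoters of F2rl2, Fermt3 and P2ry12 are shown because these genes gave the most contrasting values: F2rl2 had the widest strain range, Fermt3 differed between strains in 3 probe sets, and P2ry12 fell with globin reduction. Each window runs from 250 bases before to 50 bases after the start, from RefSeq in build GRCm38.p6, 5′ to 3′ on the gene's strand. Capitals mark matches, searched on both strands, to the motifs of 3 families of factors known to act in megakaryocytes. The motifs searched for GATA factors were AGATAA and also, as a second spelling, TGATAA. For ETS factors they were AGGAAG and also, as a second spelling, CGGAAG. For RUNX factors the motif searched was TGTGGT, and none of the matches printed here overlap.
F2rl2, chr13:95696670-95696969, plus strand: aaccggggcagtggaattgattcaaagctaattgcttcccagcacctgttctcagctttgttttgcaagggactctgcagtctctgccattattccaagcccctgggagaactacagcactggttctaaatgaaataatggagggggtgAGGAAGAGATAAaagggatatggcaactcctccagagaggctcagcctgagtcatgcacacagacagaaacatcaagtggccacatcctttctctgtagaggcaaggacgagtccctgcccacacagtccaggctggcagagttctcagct
Fermt3, chr19:7019420-7019719, minus strand: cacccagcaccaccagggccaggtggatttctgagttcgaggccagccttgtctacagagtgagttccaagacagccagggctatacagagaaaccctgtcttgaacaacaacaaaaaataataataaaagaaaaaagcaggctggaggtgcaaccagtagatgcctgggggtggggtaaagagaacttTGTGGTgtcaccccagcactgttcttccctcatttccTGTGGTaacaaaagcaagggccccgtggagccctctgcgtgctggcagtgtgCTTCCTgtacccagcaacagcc
P2ry12, chr3:59262936-59263235, minus strand: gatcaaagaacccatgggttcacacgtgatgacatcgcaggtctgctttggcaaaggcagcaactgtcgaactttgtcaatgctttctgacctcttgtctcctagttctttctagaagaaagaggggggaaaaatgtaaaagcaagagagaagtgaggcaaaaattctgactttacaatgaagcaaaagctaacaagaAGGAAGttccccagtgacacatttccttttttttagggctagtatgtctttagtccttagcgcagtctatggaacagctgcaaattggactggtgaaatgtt
In the F2rl2 window an ETS match that begins 101 bases before the start is followed without a gap by a GATA match that begins 95 bases before it. The Fermt3 window holds 2 RUNX matches before the start and an ETS match on the other strand after it, and the P2ry12 window holds 1 ETS match. Windows were given for 9 of the 10 genes, all but Rgs18, and a GATA match stood in those of 2 genes (F2rl2 and P2rx1), an ETS match in those of 6 and a RUNX match in that of 1. Over all 32851 windows of this length 18.6% held a GATA match, 46.5% an ETS match and 16.8% a RUNX match. A match describes the reference sequence and is not a measured binding site.

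Platelet markers were bright in both preparations. Of 18 listed marker genes 15 were tested, and all 15 rose in GLOBINclear RNA (limma, paired by mouse), with a mean level of 10.76 ± 0.41 in GLOBINclear RNA and 9.53 ± 0.59 in whole RNA (SD, n = 18 each). Of the markers not tested, Clec2l was near the floor and the others were not analysed here. The 10 neutrophil markers tested averaged 5.31 ± 1.05 in GLOBINclear RNA and 4.46 ± 0.80 in whole RNA. Of these 10, Cxcr2, Mmp8 and Ngp were near the floor in GLOBINclear RNA, as were Camp and Ltf, which lay below the filter. One mouse stood apart: 129S1/ImJ replicate 3 had a neutrophil marker mean of 8.85 in GLOBINclear RNA and 7.40 in whole RNA, while the highest value in the other mice of its strain was 5.80 in GLOBINclear RNA and 4.62 in whole RNA. The arrays of GLOBINclear RNA had 3802 to 5278 probe sets at log2 5 or above, against 2196 to 3122 in whole RNA.

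The first comparison asked how the measured levels changed when globin mRNA was removed. P2rx1, Tbxas1, Alox12, Fermt3 and the brightest sets of F2rl2 and Plek rose in GLOBINclear RNA, and the ADP receptor P2ry12 fell by 1.59 on the log2 scale. Of the 17 member probe sets tested 13 rose and 3 fell (limma, Benjamini-Hochberg adjusted over all tested sets), where 39.4% of all 22518 tested sets rose and 47.6% fell, or 87% in either direction. The remaining set, of Rgs18, had no call. The rises were present in 18 of 18 mice for 10 sets, and the falls for 2. The share of all tested sets that moved alike in 18 of 18 mice was not counted, so these counts have no background here. The median change was 0.94 over the 17 member sets and -0.05 over all tested sets. Among all tested sets as bright as most of these, rises prevailed: 90.5% rose at mean levels of log2 5 to 7, 92.6% at log2 7 to 9 and 84.2% above log2 9. The members' share of rises is thus near the background for probe sets of their brightness.

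**Figure D1:**
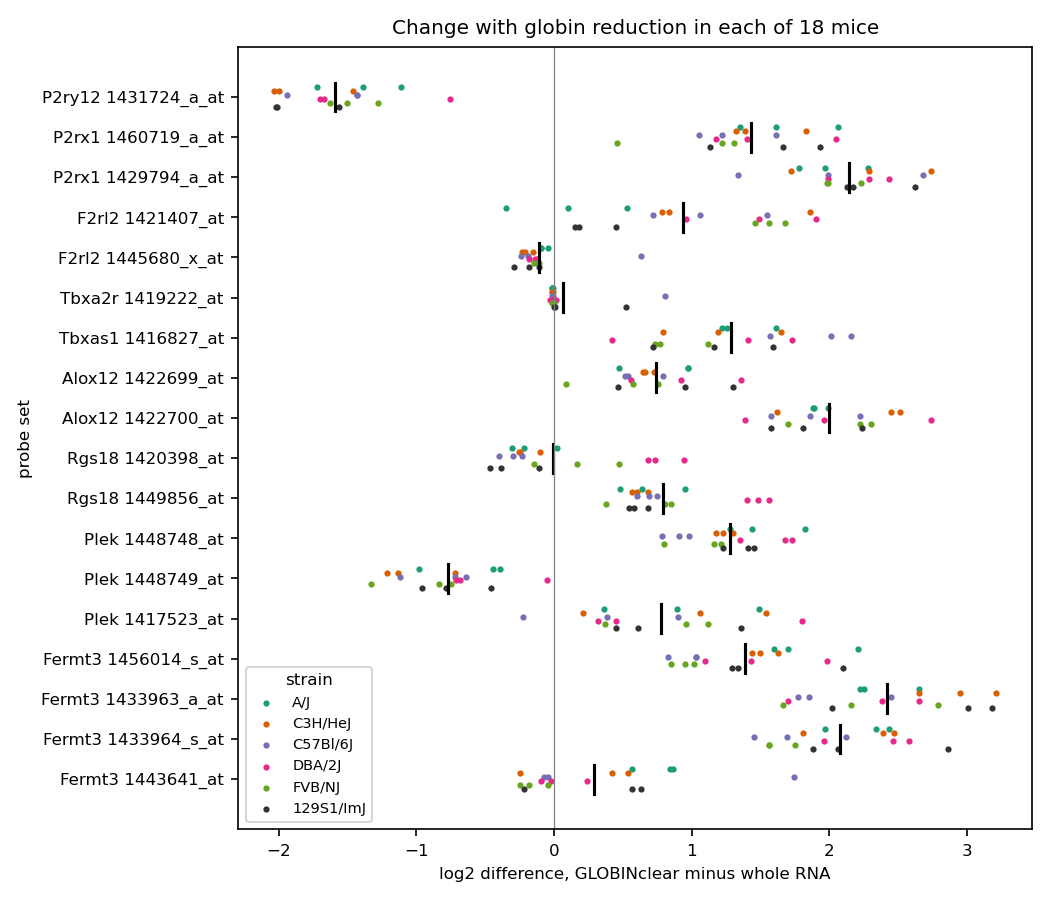
Log2 difference of GLOBINclear minus whole RNA (x axis) in each of 18 mice, coloured by strain, for the 18 probe sets (rows), with a black bar at the mean. P2ry12 lies left of 0 in all mice, the P2rx1 and the 3 brighter Fermt3 sets lie right of 0 in all mice, and for both Rgs18 sets the 3 DBA/2J mice lie to the right of the other strains.

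P2ry12 is the Gi-coupled ADP receptor of platelets and the target of the thienopyridine drugs. Its probe set (1431724_a_at) had a lowest, median and highest value of 5.13, 8.01 and 8.86 in GLOBINclear RNA, against 7.15, 9.50 and 10.19 in whole RNA. The ranges overlapped across mice, yet the GLOBINclear value was the lower one in 18 of 18 mice. The fall was 1.59 on the log2 scale (SE 0.08, adjusted p = 7.59e-13, limma), a level 3.01-fold lower in GLOBINclear RNA, and it was called within each strain, with changes of -1.87 in 129S1/ImJ to -1.38 in DBA/2J. The share of all tested sets called as fallen within 1 strain was 23.2% in A/J, 37.7% in C3H/HeJ, 32.5% in C57Bl/6J, 25.1% in DBA/2J, 34.7% in FVB/NJ and 38.3% in 129S1/ImJ. With arrays centred on hybridization spike-ins, which raise all tested sets by a median of 2.03 in GLOBINclear RNA, the P2ry12 change was 0.49, below that shift. With quantile normalization of all arrays it was -2.79.

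P2rx1 is an ATP-gated cation channel of the platelet surface. Its set 1429794_a_at had a lowest, median and highest value of 6.16, 7.29 and 8.24 in GLOBINclear RNA and of 3.99, 5.28 and 5.95 in whole RNA. These ranges did not meet, the 1 member set of which this is true, while 4.83% of all tested sets lay wholly higher in GLOBINclear RNA. It rose by 2.15 (SE 0.08, adjusted p = 1.75e-14, limma) and the second set, 1460719_a_at, by 1.43 (SE 0.09, adjusted p = 2.97e-11), both in 18 of 18 mice. Under quantile normalization of all arrays the second set lost its call (0.12, adjusted p = 0.133).

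F2rl2 is a thrombin-cleaved receptor of the protease-activated family, a cofactor for a sister receptor on mouse platelets. Its set 1421407_at ran from 2.68 through a median of 5.88 to 7.39 in GLOBINclear RNA and from 2.47 through 4.83 to 5.93 in whole RNA. The rise was 0.94 (SE 0.15, adjusted p = 8.4e-06, limma) in 17 of 18 mice, and was 0.11 without a call (adjusted p = 0.272) under quantile normalization of all arrays. A second set, 1445680_x_at, was near the floor in both preparations (2.92 ± 0.21 in GLOBINclear RNA against 3.03 ± 0.06 in whole RNA), and its small fall of 0.11 turned to a change of 1.97 under spike-in centring and lost its call under median centring and both quantile normalizations. Tbxa2r, the thromboxane receptor, had 1 set at 2.58 ± 0.23 in GLOBINclear RNA and 2.52 ± 0.01 in whole RNA, near the floor and below the filter, so it was not tested.

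Among the arachidonate enzymes, Tbxas1, which makes thromboxane, rose by 1.28 (SE 0.11, adjusted p = 1.67e-09, limma), with a lowest, median and highest value of 5.08, 6.15 and 7.10 in GLOBINclear RNA against 3.93, 4.95 and 5.89 in whole RNA. Alox12, the platelet lipoxygenase that makes hydroxy fatty acids from arachidonate, rose in both of its sets. Set 1422699_at had a lowest, median and highest value of 9.54, 10.39 and 11.60 in GLOBINclear RNA and of 8.59, 9.54 and 11.08 in whole RNA, a rise of 0.74 (SE 0.07). The dimmer set 1422700_at rose by 2.00 (SE 0.09), the values being 5.14, 6.51 and 7.78 in GLOBINclear RNA and 3.56, 4.62 and 6.20 in whole RNA. All 3 sets were higher in 18 of 18 mice. Under quantile normalization of all arrays the bright Alox12 set turned to -0.33 and Tbxas1 lost its call (0.05, adjusted p = 0.711).

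Among the intracellular proteins, sets of 1 gene did not always change alike. Rgs18 speeds the turning off of Gi and Gq proteins and so restrains platelet activation. Its set 1420398_at had a lowest, median and highest value of 9.74, 11.35 and 12.37 in GLOBINclear RNA and of 10.14, 11.13 and 12.25 in whole RNA, a change of -0.01 (SE 0.10, adjusted p = 0.942, limma). Set 1449856_at rose by 0.79 (SE 0.08, adjusted p = 1.49e-08) in 18 of 18 mice, so the 2 sets of Rgs18 disagree. Under quantile normalization of all arrays they gave -0.83 and -0.18, both called as falls, and under spike-in centring 2.07 and 2.87.

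Plek encodes pleckstrin, the main substrate of protein kinase C in platelets, also present in leukocytes. Set 1448748_at rose by 1.28 (SE 0.07) with a lowest, median and highest value of 10.62, 11.32 and 12.07 in GLOBINclear RNA and of 9.22, 9.80 and 11.18 in whole RNA. Set 1417523_at rose by 0.78 (SE 0.12) in 17 of 18 mice. Set 1448749_at went the other way and fell by 0.77 (SE 0.08, adjusted p = 1.3e-08, limma) in 18 of 18 mice, with 8.00, 8.87 and 10.15 in GLOBINclear RNA and 8.78, 9.57 and 10.86 in whole RNA. The Plek sets therefore disagree, and scaling moves them: 1417523_at turned to -0.54 under quantile normalization of all arrays, and 1448749_at to 1.31 under spike-in centring.

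Fermt3 encodes the kindlin of blood cells, which binds integrin tails and is needed for integrins to open. Its 3 bright sets rose in 18 of 18 mice: 1456014_s_at by 1.39 (SE 0.09), 1433963_a_at by 2.42 (SE 0.11) and 1433964_s_at by 2.07 (SE 0.09). The first had a lowest, median and highest value of 10.97, 11.90 and 12.73 in GLOBINclear RNA against 8.76, 10.45 and 11.74 in whole RNA. These 3 rises kept their direction and call under each scaling run. The fourth set, 1443641_at, was dim (3.68 ± 0.51 in GLOBINclear RNA against 3.39 ± 0.06 in whole RNA), and its rise of 0.29 (adjusted p = 0.0262, limma) was present in 9 of 18 mice and lost its call without A/J replicate 2 or A/J replicate 3.

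The second comparison asked whether the strains differed. By an F test over the 6 strains, F2rl2, Rgs18, Alox12, Plek, Fermt3 and P2rx1 differed in at least 1 probe set in each preparation. P2ry12 and Tbxas1 were not called in either by that test. In GLOBINclear RNA 13 of 17 sets passed the F test over the 6 strains (limma, Benjamini-Hochberg adjusted over all tested sets), beside 11.2% of all tested sets. In whole RNA 10 of 17 passed, beside 4.32%, and the same 10 passed in both, beside 3.43%. Bright sets were called more often: among sets with a mean above log2 4, 14 of 15 member sets passed in GLOBINclear RNA, beside 40% of all, and 13 in whole RNA, beside 23.4%. The whole RNA arrays are second measurements of the same mice and not further animals. With 1 mouse left out at a time, the counts ran from 9 to 15 in GLOBINclear RNA, where leaving out C57Bl/6J replicate 1 gave 15, and from 9 to 11 in whole RNA. Both quantile normalizations gave 10 sets in GLOBINclear RNA and 8 in whole RNA. With no filter 9 were called in GLOBINclear RNA. In GLOBINclear RNA 9 sets were called in all 18 repeats without 1 mouse. They were F2rl2 1421407_at, both sets of Rgs18, the brighter set of Alox12, Plek 1448748_at and 1417523_at and the 3 bright sets of Fermt3. In whole RNA 9 of the 10 were called in all repeats, the exception being Rgs18 1449856_at, which had an adjusted p of 0.0502 without DBA/2J replicate 3.

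**Figure D2:**
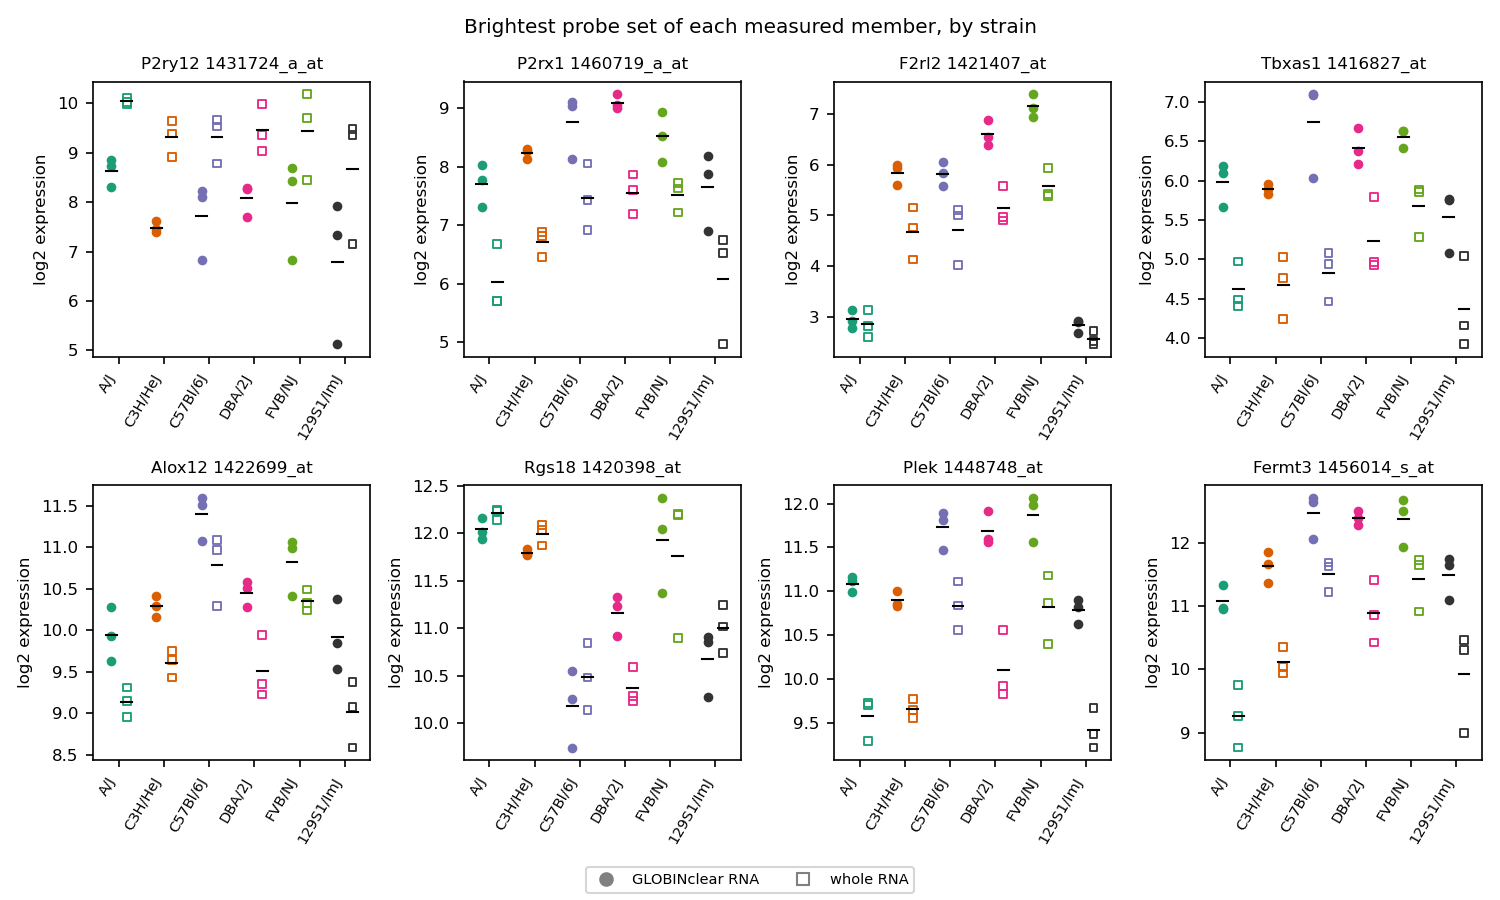
Log2 expression (y axis) of the brightest tested probe set of each of 8 genes, by strain (x axis), with GLOBINclear RNA as filled circles left of whole RNA as open squares, and a bar at each mean of 3 mice. F2rl2 sits near 3 in A/J and 129S1/ImJ in both preparations, and Rgs18 is lowest in C57Bl/6J in GLOBINclear RNA and in DBA/2J in whole RNA.

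F2rl2 had the widest strain range of these genes, and it split the strains into a near-floor pair and 4 others. In GLOBINclear RNA the 3 mice had 2.78, 2.93 and 3.15 in A/J and 2.68, 2.91 and 2.92 in 129S1/ImJ. They had 5.58, 5.83 and 6.05 in C57Bl/6J, 5.60, 5.94 and 5.99 in C3H/HeJ, 6.39, 6.55 and 6.87 in DBA/2J and 6.94, 7.11 and 7.39 in FVB/NJ. All 6 arrays of A/J and 129S1/ImJ thus lay at 3.15 or below and all 12 others at 5.58 or above. In whole RNA the A/J mice had 2.62, 2.83 and 3.13 and the 129S1/ImJ mice 2.47, 2.53 and 2.73, while the other 12 arrays ran from 4.03 to 5.93, again without overlap. The F test gave adjusted p = 1.55e-09 in GLOBINclear RNA and 5.5e-05 in whole RNA (limma). Of neighbours in the order of means, 1 step was called: C57Bl/6J lay above A/J in GLOBINclear RNA (5.82 and 2.95, adjusted p = 4.75e-07) and C3H/HeJ above A/J in whole RNA (4.68 and 2.86, adjusted p = 0.0122). The 129S1/ImJ mean was 2.84 below the mean of the other 5 strains in GLOBINclear RNA (SE 0.15, adjusted p = 3.15e-08) and 2.02 below it in whole RNA (SE 0.23, adjusted p = 0.000252). The split rests on 1 probe set, since the other F2rl2 set was near the floor in all strains. With A/J and 129S1/ImJ near the floor, these are differences in the measured signal, and no fold is given. The size of any true difference is not known from them. How well the probes match the sequence of each strain was not tested.

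The globin-reduction change of F2rl2 also differed between strains (interaction adjusted p = 0.0437, limma, beside 2.75% of all tested sets). It was 0.09 in A/J (SE 0.23) and 0.26 in 129S1/ImJ (SE 0.23), against 1.11 in C57Bl/6J, 1.16 in C3H/HeJ, 1.45 in DBA/2J and 1.57 in FVB/NJ. All tested sets were called as risen within 1 strain in 24.6% of cases in A/J, 28.7% in C3H/HeJ, 30.3% in C57Bl/6J, 30.4% in DBA/2J, 27.9% in FVB/NJ and 32.1% in 129S1/ImJ. The strains without a called change were those at the floor in both preparations. The interaction lost its call in 12 of 18 repeats without 1 mouse, in which the adjusted p reached 0.111, under quantile normalization of all arrays (0.918), with no filter (0.084) and with robust variance estimates (0.0515).

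Rgs18 had its highest mean in both preparations in A/J, a strain in which F2rl2 was near the floor and the 3 bright sets of Fermt3 were lowest. For set 1420398_at in GLOBINclear RNA the 3 mice had 11.94, 12.02 and 12.16 in A/J, 11.77, 11.77 and 11.83 in C3H/HeJ and 11.37, 12.04 and 12.37 in FVB/NJ. They had 10.91, 11.23 and 11.32 in DBA/2J, 10.27, 10.85 and 10.91 in 129S1/ImJ and 9.74, 10.25 and 10.55 in C57Bl/6J. The C57Bl/6J mice did not overlap with those of A/J, C3H/HeJ, FVB/NJ or DBA/2J. Their mean lay 1.34 below that of the other 5 strains (10.18 and 11.52, SE 0.19, adjusted p = 0.000506, limma), and the F test gave adjusted p = 0.000311 in GLOBINclear RNA and 0.0019 in whole RNA. In whole RNA the lowest mean was in DBA/2J, at 10.37, which was 1.12 below the other 5 (SE 0.22, adjusted p = 0.0246). That call was lost when any 1 of the 3 DBA/2J mice was left out (adjusted p up to 0.168). The second set, 1449856_at, gave the same lowest and highest strains, with F test adjusted p = 0.0111 in GLOBINclear RNA and 0.0162 in whole RNA, but no neighbouring strains in the order of the first set were called as different.

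Rgs18 changed with globin reduction by different amounts in different strains. For set 1420398_at the 3 DBA/2J mice changed by 0.95, 0.74 and 0.69, an effect of 0.79 (SE 0.11, adjusted p = 1.96e-05, limma). The other strains had changes of -0.32 in 129S1/ImJ, -0.31 in C57Bl/6J, -0.20 in C3H/HeJ, -0.17 in A/J and 0.16 in FVB/NJ, so DBA/2J was the 1 strain with a called rise, while the changes in 129S1/ImJ (adjusted p = 0.0136) and C57Bl/6J (adjusted p = 0.0199) were called falls. For set 1449856_at the DBA/2J mice changed by 1.48, 1.40 and 1.56, against strain means of 0.60 to 0.69 elsewhere. The interaction had adjusted p = 0.00214 for the first set and 0.0101 for the second. The first held in all 18 repeats without 1 mouse (up to 0.0167), and the second lost its call without DBA/2J replicate 1 or replicate 3 (up to 0.0631). Both lost their calls under quantile normalization of all arrays (0.0674 and 0.178), quantile normalization within each preparation (0.108 and 0.181) and spike-in centring (0.0755 and 0.129), so the call depends on how arrays are scaled. DBA/2J replicate 3 was also the 1 mouse of 18 whose arrays of both preparations did not deviate together most closely with each other (correlation -0.08 over probe sets).

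**Figure D3:**
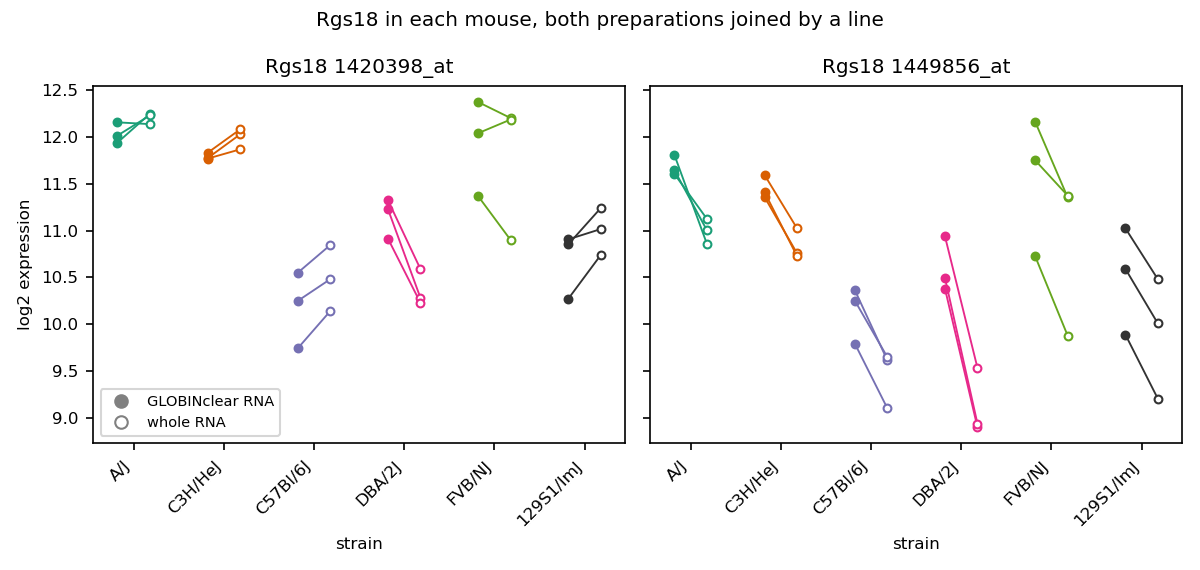
Log2 expression (y axis) of both Rgs18 probe sets in each mouse, by strain (x axis), with the GLOBINclear value as a filled circle left of the whole RNA value as an open circle and a line joining the same mouse. The 3 DBA/2J mice are higher in GLOBINclear RNA in both panels, by 0.69 to 0.95 on the left and 1.40 to 1.56 on the right.

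In the sets of Alox12, Plek and P2rx1 and the 3 bright sets of Fermt3, the highest mean was in C57Bl/6J, FVB/NJ or DBA/2J and the lowest in 129S1/ImJ, A/J or, for 1 set of Plek, C3H/HeJ. The full orders differed between these sets. The dim Fermt3 set 1443641_at, not called between strains, had its highest mean in A/J in GLOBINclear RNA. Alox12 1422699_at in GLOBINclear RNA had 11.08, 11.51 and 11.60 in C57Bl/6J, against 9.54, 9.84 and 10.38 in 129S1/ImJ and 9.63, 9.93 and 10.28 in A/J. The C57Bl/6J mice did not overlap with any other strain there, and their mean lay 1.11 above the other 5 in GLOBINclear RNA (11.39 and 10.28, SE 0.18, adjusted p = 0.00188, limma) and 1.26 above them in whole RNA (10.78 and 9.52, SE 0.20, adjusted p = 0.00305). These calls held in all 18 repeats without 1 mouse. The second Alox12 set was called in GLOBINclear RNA (F test adjusted p = 0.0406), a call that was lost in 15 of 18 repeats without 1 mouse.

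Fermt3 was highest in C57Bl/6J and lowest in A/J in its 3 bright sets and both preparations. Set 1433963_a_at had 10.91, 10.98 and 11.03 in C57Bl/6J in GLOBINclear RNA, against 8.48, 8.63 and 9.29 in A/J. The 2 strain means differed 4.50-fold in GLOBINclear RNA and 5.74-fold in whole RNA, with F test adjusted p = 0.0029 in GLOBINclear RNA and 0.01 in whole RNA (limma). In whole RNA, 129S1/ImJ replicate 3 was the lowest mouse of all for this set, at 5.45, against 6.98 and 7.57 in the other mice of its strain. Without that mouse the F test gave adjusted p = 0.000284 in GLOBINclear RNA and 0.00219 in whole RNA.

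Plek 1448748_at was lowest in 129S1/ImJ, with 10.62, 10.82 and 10.90 in GLOBINclear RNA, against 11.56, 11.98 and 12.07 in FVB/NJ. The 129S1/ImJ mean lay 0.67 below the other 5 (SE 0.12, adjusted p = 0.00271, limma) and that of Plek 1417523_at 1.14 below them (SE 0.21, adjusted p = 0.00406), and both calls held in all 18 repeats without 1 mouse. In whole RNA Plek 1417523_at was not called (F test adjusted p = 0.183). Among neighbours in the order of means for Plek 1448748_at, 1 step was called in GLOBINclear RNA, DBA/2J above A/J (11.69 and 11.09, adjusted p = 0.0499). Plek 1448749_at was called in GLOBINclear RNA (F test adjusted p = 0.0488), but not in 15 of the 18 repeats. P2rx1 1429794_a_at was highest in DBA/2J, with 7.74, 7.81 and 8.13 in GLOBINclear RNA, and lowest in 129S1/ImJ, with 6.16, 6.57 and 6.75. Its F test gave adjusted p = 0.0364 in GLOBINclear RNA, a call lost in 15 of 18 repeats without 1 mouse, and 0.000436 in whole RNA, where the call held in all repeats. The other P2rx1 set was called in GLOBINclear RNA (adjusted p = 0.0383), but not in 12 of the 18 repeats.

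P2ry12 was not called between strains, and mice of 1 strain lay far apart. In GLOBINclear RNA the 129S1/ImJ mice had 7.91, 7.35 and 5.13, the FVB/NJ mice 8.42, 6.82 and 8.69 and the C57Bl/6J mice 6.84, 8.11 and 8.24. The low mouse of each of these strains was also the low one in whole RNA, where 129S1/ImJ replicate 3 had 7.15, FVB/NJ replicate 2 had 8.45 and C57Bl/6J replicate 1 had 8.78. The F test gave adjusted p = 0.416 in GLOBINclear RNA and 0.927 in whole RNA (limma), and 0.549 and 0.973 without 129S1/ImJ replicate 3. In each of these low mice Rgs18 1420398_at was also the lowest of its strain, in both preparations. In GLOBINclear RNA it was 10.27 in 129S1/ImJ replicate 3, 11.37 in FVB/NJ replicate 2 and 9.74 in C57Bl/6J replicate 1. The whole RNA values were 10.74, 10.90 and 10.14 in the same order. Tbxas1 ranged from strain means of 6.74 in C57Bl/6J to 5.53 in 129S1/ImJ in GLOBINclear RNA without passing the F test (adjusted p = 0.0543, or 0.00445 without C57Bl/6J replicate 1), and in whole RNA its adjusted p was 0.18. The repeat without C57Bl/6J replicate 1 was the 1 of 18 with a call, and elsewhere the adjusted p reached 0.12. The contrast of 129S1/ImJ with the other 5 was called for Tbxas1 in GLOBINclear RNA, but not in 16 of the 18 repeats.

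Counted over strains, C57Bl/6J was higher than the other 5 in 7 member sets and lower in 2 in GLOBINclear RNA, beside 3.14% and 2.01% of all tested sets. In whole RNA it was higher in 7 sets and lower in 1, beside 1.8% and 0.662%. A/J was higher in 1 and lower in 4 sets in GLOBINclear RNA, beside 1.45% and 1.71%, and higher in 1 and lower in 3 in whole RNA, beside 0.417% and 0.409%. C3H/HeJ was higher in 1 and lower in 1 in GLOBINclear RNA, beside 0.706% and 0.702%. DBA/2J was higher in 1 in GLOBINclear RNA, beside 1.16%, and higher in 2 and lower in 1 in whole RNA, beside 0.342% and 0.568%. FVB/NJ was higher in 4 in GLOBINclear RNA, beside 2.59%, and in 3 in whole RNA, beside 0.964%. 129S1/ImJ was lower in 7 in GLOBINclear RNA, beside 2.97%, and in 3 in whole RNA, beside 1.13%. These shares are over all tested sets, bright and dim, and shares among bright sets alone are not given here. Over the 6 strains these calls came to 28 in GLOBINclear RNA and 21 in whole RNA, of which 8 and 5 held in all 18 repeats without 1 mouse. The calls are not independent, since the contrasts share arrays and several sets can measure 1 gene. F2rl2 1421407_at alone was called in each of the 6 strains in GLOBINclear RNA. For this set C3H/HeJ (5.84) and C57Bl/6J (5.82) were called higher, yet lay below FVB/NJ (7.15) and DBA/2J (6.60). The mean of the other 5 there includes A/J and 129S1/ImJ, which were near the floor. Leaving out A/J replicate 3 gave 17 and 12 calls, and leaving out C57Bl/6J replicate 2 gave 18 and 10. In whole RNA 12 calls were also left without A/J replicate 2, and 13 without C57Bl/6J replicate 3, DBA/2J replicate 3 or FVB/NJ replicate 1. The 8 were 4 strains' F2rl2 calls (129S1/ImJ, A/J, FVB/NJ and DBA/2J), Alox12 1422699_at and Rgs18 1420398_at in C57Bl/6J, and Plek 1448748_at and 1417523_at in 129S1/ImJ.

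The platelet markers also differed between strains. Their mean in GLOBINclear RNA was 11.21 in C57Bl/6J, 11.09 in FVB/NJ, 10.97 in DBA/2J, 10.64 in C3H/HeJ, 10.37 in 129S1/ImJ and 10.28 in A/J, and in whole RNA it ran from 10.21 in C57Bl/6J to 8.85 in 129S1/ImJ. Of the 15 tested markers 11 passed the F test in each preparation. With each array centred on its platelet marker mean, an alternative chosen after seeing the data, F2rl2 1421407_at (F test adjusted p = 6.59e-09 in GLOBINclear RNA and 7.95e-06 in whole RNA, limma) and Rgs18 1420398_at (1.17e-06 and 6.53e-08) kept their calls. Rgs18 1449856_at and the 3 bright sets of Fermt3 also kept theirs in both preparations. Alox12 1422699_at and all sets of Plek kept theirs in GLOBINclear RNA. On that scale the A/J mean of Rgs18 1420398_at was 1.47 above the other 5 in GLOBINclear RNA. In GLOBINclear RNA both P2rx1 sets (F test adjusted p = 0.123 and 0.176) and Alox12 1422700_at (0.0657) lost their calls. In whole RNA P2rx1 1429794_a_at (0.19), Alox12 1422699_at (0.361) and Plek 1448748_at (0.732) and 1448749_at (0.379) lost theirs. P2ry12 gained a call (0.0191 in GLOBINclear RNA and 0.00221 in whole RNA), as did the dim sets F2rl2 1445680_x_at and Fermt3 1443641_at in both preparations. Tbxas1 (0.0217) and Alox12 1422700_at (0.0366) gained one in whole RNA. That centring calls 84.4% of all tested sets in GLOBINclear RNA and 97.4% in whole RNA, so a call on that scale says little by itself. Some leukocyte markers passed the F test too. In whole RNA 1 of 12 monocyte and 1 of 9 T cell markers passed, and none of the other leukocyte markers. In GLOBINclear RNA 4 of 10 neutrophil, 3 of 8 B cell, 1 of 12 monocyte and 1 of 9 T cell markers passed. There 1 of 5 eosinophil, basophil and mast cell markers passed as well, and 0 of 7 NK cell markers. The marker levels that follow are those in GLOBINclear RNA. The neutrophil marker mean was 5.80, 5.78 and 8.85 in the 129S1/ImJ mice, so their high strain mean rests on replicate 3, against 4.54 ± 0.31 in FVB/NJ, the lowest strain (SD, n = 3). The 8 B cell markers averaged 6.65 ± 0.28 in DBA/2J, the highest strain, and 4.96 ± 0.71 in A/J, the lowest. C57Bl/6J replicate 1 stood apart in T cell markers, at 6.96, where the other mice of its strain had 5.06 and 4.34. Its B cell and monocyte marker means were also the highest of its strain. Its platelet marker mean was the lowest of its strain, at 10.805 against 11.436 and 11.395. C57Bl/6J replicate 1 is also the mouse without which 15 sets were called in GLOBINclear RNA. C3H/HeJ replicate 1 stood apart in monocyte markers, at 7.55, where the others of its strain had 5.65 and 5.64. The part of platelet and leukocyte markers in the strain differences of these genes was not tested.

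**Figure D4:**
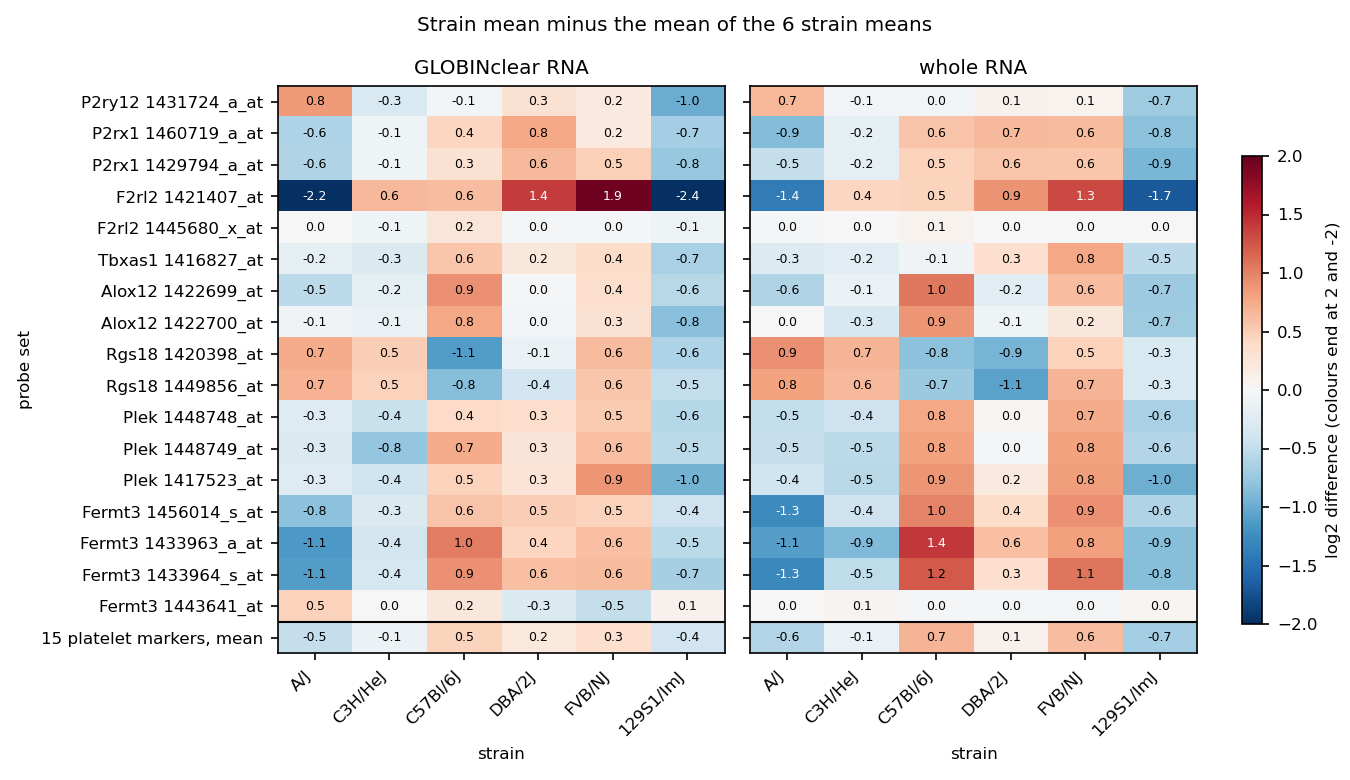
Strain mean minus the mean of the 6 strain means (log2, colour and printed value) for the 17 tested probe sets (rows) and the mean of 15 platelet markers (bottom row), by strain (columns), in GLOBINclear RNA (left) and whole RNA (right). F2rl2 1421407_at has the strongest colours, the 3 bright Fermt3 rows are lowest in A/J, and both Rgs18 rows are highest there.

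Among themselves, the 8 measured genes moved together to different degrees. Pearson correlations over the 18 GLOBINclear arrays, which share strain and platelet content, were 0.89 for P2rx1 with Fermt3 and 0.85 for Alox12 with Fermt3, but -0.24 for Rgs18 with Fermt3 and -0.29 for Rgs18 with Alox12. After strain means were subtracted, Rgs18 correlated at 0.74 with Fermt3 and 0.55 with Alox12, and P2ry12 at 0.93 with P2rx1, up from 0.51 before subtraction. The mice 129S1/ImJ replicate 3, C57Bl/6J replicate 1 and FVB/NJ replicate 2 were the lowest of their strains for both P2ry12 and P2rx1. Their part in the correlation was not tested. F2rl2 correlated at 0.79 with Fermt3 over arrays and at 0.45 within strains. Over all tested genes the pattern most like each member was that of Snap23 for P2ry12 (r = 0.90), Treml1 for P2rx1 (0.91), Actn1 for F2rl2 (0.91), BC031181 for Tbxas1 (0.91), Grcc10 for Alox12 (0.96), 2310034O05Rik for Rgs18 (0.92), Mfsd2b for Plek (0.95) and Capn2 for Fermt3 (0.98), each over 18 arrays.

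Other genes of the pathway were taken from 6 lists of 136 genes in all, of which 110 were tested, each by its brightest set. Of these 89 rose in GLOBINclear RNA, 14 fell and 7 had no call, beside 44.7% of all tested genes that rose and 43.1% that fell, and their median change was 1.08 against 0.04 over all tested genes. As for the members, the share of rises over all sets above log2 5 was higher, at 84.2% to 92.6%. Among the tyrosine kinase and phospholipase C genes 25 of 28 rose, such as Itpr2, a calcium channel of internal stores, by 2.47 (SE 0.08), the kinase Akt2 by 1.95 (SE 0.07) and the kinase Fyn by 2.53 (SE 0.09). Of 19 G proteins and regulators 15 rose, among them Gnaz, a Gi-family alpha subunit, by 2.69 (SE 0.11), the receptor kinase Grk6 by 1.97 (SE 0.08) and the arrestin Arrb1 by 2.61 (SE 0.11). Of 22 integrin and Rap1 genes 16 rose, with the platelet integrin chains Itgb3 by 2.83 (SE 0.13) and Itga2b by 1.81 (SE 0.09) and the Rap1 brake Rasa3 by 2.03 (SE 0.09). Of 15 genes listed as brakes 14 rose, with the kinase subunits Prkacb by 2.27 (SE 0.09) and Prkaca by 2.06 (SE 0.10) and their substrate Vasp by 2.30 (SE 0.10).

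Of 15 other activation receptors 13 rose, with the adhesion molecules Esam by 1.95 (SE 0.08) and Pecam1 by 2.05 (SE 0.13) and the podoplanin receptor Clec1b by 0.75 (SE 0.05), while 2 fell. The arachidonate genes were the least uniform, with 6 of 11 risen and 3 fallen. The risen ones included the glutathione peroxidase Gpx4 by 1.18 (SE 0.06), Alox5ap, which presents arachidonate to leukotriene synthesis, by 1.09 (SE 0.07), and the efflux pump Abcc4 by 1.06 (SE 0.09).

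Strain differences passed the F test for 36 of the 110 pathway genes in GLOBINclear RNA, beside 12.3% of all tested genes, and for 19 in whole RNA, beside 4.77%. As for the members, the share over all sets with a mean above log2 4 was higher, at 40% in GLOBINclear RNA and 23.4% in whole RNA. Pik3cg, a phosphoinositide kinase, had means of 4.76 ± 0.40 in A/J, 4.84 ± 0.15 in C3H/HeJ and 4.81 ± 0.24 in 129S1/ImJ, against 2.56 ± 0.02 to 2.96 ± 0.43 in the other strains in GLOBINclear RNA (F test adjusted p = 4.62e-06, limma), and was near the floor in all strains in whole RNA. Vcl, the talin-binding protein vinculin, ran from 9.76 ± 0.27 in FVB/NJ to 7.73 ± 0.13 in A/J in GLOBINclear RNA (adjusted p = 1.98e-05). Fcer1g, the signalling chain of the collagen receptor, was highest in C57Bl/6J at 10.53 ± 0.26 and lowest in A/J at 8.53 ± 0.13 (adjusted p = 5.83e-05). In whole RNA the smallest p-values were those of Gucy1b1, a subunit of the nitric oxide receptor, which ran from 6.87 ± 0.13 in C57Bl/6J to 3.26 ± 0.24 in C3H/HeJ (adjusted p = 0.000646), Itpr2 (0.00134) and Gp1bb (0.00241), a chain of the von Willebrand factor receptor that stood in the list of brakes.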

How the data were processed

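RNA of 18 mice was measured on 36 arrays. The authors deposited log2 expression values, 1 per probe set and array (the scale follows from the range of values). GCRMA, MAS5 and affy are named, with no role or order, in the submitters' processing notes. No source used here says if the arrays of the 2 preparations shared a normalization. Titles gave each sample's strain and preparation.

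Probe sets were named by the platform annotation (34945 of the non-control sets had 1 symbol, 932 several, 9160 none), and all 18 member sets matched the RefSeq table of GRCm38.p6 by Entrez number. After 64 control sets were set aside, sets with a mean over all arrays above log2 2.89, the median of those means, were tested (22518 sets, 17 of the members' 18). Fits used limma 3.58.1 in R 4.3.3 with an intensity trend and Benjamini-Hochberg adjustment over all tested sets at 0.05, two-sided. The globin-reduction effect and its interaction with strain had the mouse as a block, since the series design states that both preparations are paired samples of each mouse. Deviations from strain means correlated best within the same mouse for 17 of 18 mice (median 0.38, -0.08 for the exception). Strains were compared in each preparation alone by an F test, each strain with the mean of the other 5, and neighbours in the order of means pairwise. The fits were tested on simulated data.

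The members and lists were chosen with earlier results of these data known. Named besides the members were, by rule, up to 3 genes per pathway list with the largest kit t, 3 per preparation with the smallest strain p, and the gene most correlated with each member. Other scalings, filters, variance models, averaging of a gene's sets, no mouse block and leaving out each mouse were tried. Nothing says that animals of a strain came from separate litters, and 3 mice per strain limit precision. No source used here gives the hybridization day or kit run, so a batch within a preparation cannot be told apart from it.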

Additional observations from a re-analysis of the deposited data

Results flagged for a closer look

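A difference between strains in the effect of globin reduction marked 3 results, by the interaction term of the paired limma fit adjusted over all tested probe sets. For F2rl2 1421407_at the interaction had adjusted p = 0.0437, with changes near 0 in A/J and 129S1/ImJ and of 1.11 to 1.57 in the other 4 strains. For Rgs18 1420398_at it had adjusted p = 0.00214 and for Rgs18 1449856_at adjusted p = 0.0101, with the largest rise in DBA/2J for both (0.79 and 1.48). Over all tested probe sets 2.75% had a called interaction. What sets DBA/2J and the near-floor strains apart was not tested.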

How the results depend on the processing

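Without the replicate block of the mouse, 1 member set had a called interaction in place of 3, and no globin-reduction call of a member set changed. Over all tested sets the called number was 19455 in place of 19587, and over pathway genes 101 in place of 103. Scaling mattered most. Quantile normalization of all arrays gave 7 sets that rose and 6 that fell, turned Alox12 1422699_at to -0.334, Rgs18 1449856_at to -0.183 and Plek 1417523_at to -0.539, and left 0 interactions called (4 at an unadjusted p under 0.05, limma) and 11 one-strain calls in whole RNA. Quantile normalization within each preparation left 1 interaction and 11 such calls. Spike-in centring shifted all tested sets by a median of 2.03 and turned P2ry12 1431724_a_at to 0.486, F2rl2 1445680_x_at to 1.97, Rgs18 1420398_at to 2.07 and Plek 1448749_at to 1.31, so 0 sets fell (also 0 unadjusted, limma), 1 interaction was called and 17 one-strain calls were made in GLOBINclear RNA. Rises were 45.3% of all calls, 52.6% with median centring, 37.5% with quantile normalization of all arrays and 99.9% with spike-in centring. Without a filter 38578 sets were called for the globin-reduction effect and 10 one-strain calls were made in whole RNA, and with a filter at log2 4 the counts were 5628 and 34. With a gene's sets averaged, 8 genes were called, 7 risen and 1 fallen, and strain differences were called for 7 in GLOBINclear RNA and 6 in whole RNA. With platelet marker centring, chosen after seeing the data, 5 interactions were called, FVB/NJ minus the other 5 for P2rx1 1429794_a_at in whole RNA turned to -0.0824 and C57Bl/6J minus the other 5 for Plek 1448748_at in GLOBINclear RNA to -0.0795. Leaving out 1 mouse at a time gave 15 to 16 called member sets, 12 to 13 risen, 3 to 3 fallen, 19393 to 19564 called sets in all, 103 to 104 pathway genes, 9 to 15 and 9 to 11 strain-called sets (GLOBINclear and whole RNA), 1 to 3 interactions, and 17 to 33 and 10 to 25 one-strain calls. The cause of these shifts was not tested. Sets near the floor (F2rl2 1445680_x_at, Tbxa2r, Fermt3 1443641_at) and 3 mice per strain limit what can be seen.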
